A study of Rattus norvegicus albus with 6 samples.

Results

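Hepatic stellate cells infected with an adenovirus that carries the Wnt antagonist DKK-1 (Ad.DKK-1) were compared with cells infected with an adenovirus that carries green fluorescent protein (Ad.GFP). The comparison rests on 2 of the 6 arrays of the series, chosen by their titles, and on 10025 of 14322 named genes, which remained after the 30% of genes with the lowest mean level were left out (a log2 level of 6.39). The cells were primary stellate cells of rats, kept for 7 days on plastic in low-glucose medium with 10% fetal bovine serum, which activates them. Both viruses were applied at a multiplicity of infection of 200, that is 200 infectious particles per cell, for 24 h in 5% serum, and the cells then stayed for 24 h without serum. The other 4 arrays held cells of the same age on plastic, uninfected as far as the labels say, given ICG-001 at 10 µM or its vehicle, or FJ9 at 200 µM or its vehicle, for 24 h without serum. RNA was pooled over 3 to 4 rats for each array, so each group had 1 array and no difference below has a replicate check or a p-value. The sources used here do not give the strain, sex or age of the rats.

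Canonical Wnt ligands bind a Frizzled receptor together with the co-receptor LRP5 or LRP6. This stops the destruction complex of AXIN, APC and GSK3 from marking β-catenin for degradation, and β-catenin then joins TCF and LEF factors on target genes. DKK-1 binds LRP5 and LRP6 and keeps Wnt ligands from using them. ICG-001 acts further along, on the contact of β-catenin with the coactivator CBP, and FJ9 acts on the contact of Frizzled with Dishevelled. Stellate cells store retinoid in the healthy liver and become matrix-producing myofibroblasts when activated.

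All levels are log2 values of 1 probe set per gene, and all differences are Ad.DKK-1 minus Ad.GFP unless another pair is named. A gene is called higher or lower where the difference is at least 1.5-fold (0.585 on the log2 scale). Of the 10025 genes, 1449 were higher (14.5%) and 2082 lower (20.8%), 35.2% together. Median centring of the arrays turned that split to 1874 higher and 1681 lower, since it shifts the difference of every gene by the same amount: the array medians were 7.01 for Ad.DKK-1 and 7.11 for Ad.GFP. The differences had a standard deviation over genes of 0.68, against 0.56 for ICG-001 and 0.63 for FJ9. The vehicle arrays were the nearest measure of how far pools differ without treatment: the vehicle of FJ9 minus that of ICG-001 had a standard deviation of 0.34, with 2.44% of genes higher and 5.2% lower. A difference of at least 4-fold was read in 35 higher and 84 lower genes for Ad.DKK-1, against 2 higher and 5 lower between the vehicle arrays. Past 8-fold there were 5 higher and 9 lower genes, against 0 on either side between the vehicle arrays. Decreases with Ad.DKK-1 were more frequent among weak genes. In the 20% of genes with the lowest mean level 28.6% were lower and 12.3% higher. In the 20% with the highest mean level 16.7% were lower and 12.5% higher. The pattern was not limited to Ad.DKK-1. With ICG-001 26.6% of the weakest 20% were lower, against 7.2% of the strongest 20%. Between the vehicle arrays these shares were 13.52% and 0.65%. FJ9 went the other way, with 11.1% and 16.4%.

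**Figure D1:**
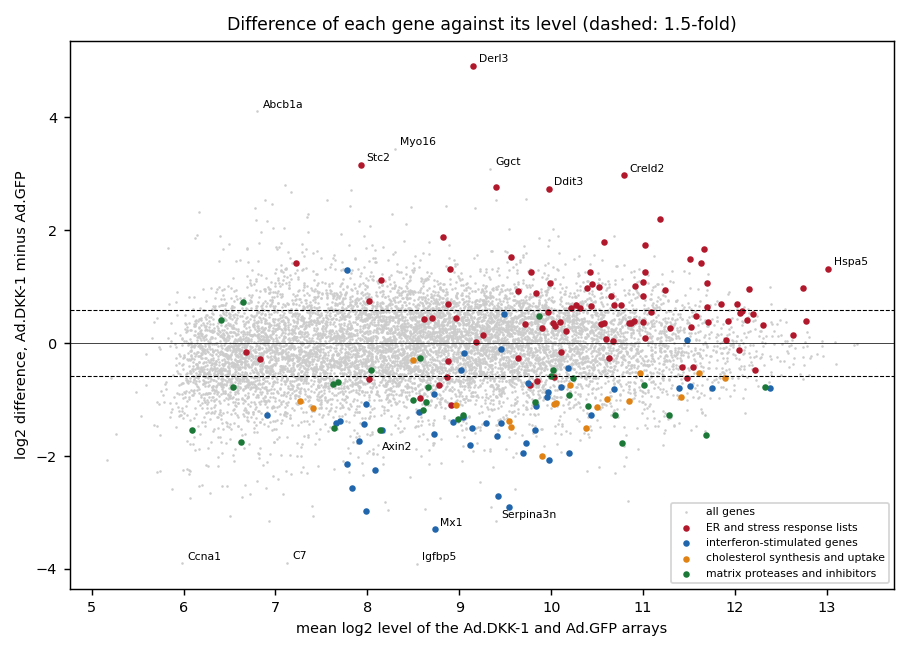
Log2 difference, Ad.DKK-1 minus Ad.GFP, of each of 10025 genes (vertical axis) against the mean log2 level of those arrays (horizontal axis), with dashed lines at 1.5-fold. Genes of the endoplasmic reticulum and stress response lists are red and reach 4.91 (Derl3), interferon-stimulated genes are blue and reach −3.30 (Mx1), and cholesterol genes (orange) and matrix proteases with their inhibitors (green) lie mostly below 0.

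The genes of 55 pathway lists were counted and their medians set side by side for 4 comparisons. The highest medians of the Ad.DKK-1 comparison were those of regulators of the integrated stress response (0.99), amino acid synthesis (0.81), cytosolic aminoacyl-tRNA synthetases (0.78) and ribosome biogenesis (0.66). The lowest were those of interferon-stimulated genes (−1.38), complement and acute-phase genes (−1.16), cholesterol synthesis and uptake (−1.05), plasminogen activators and serpins (−0.99) and matrix proteases with their inhibitors (−0.96). The median over all 10025 genes was −0.07.

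**Figure D2:**
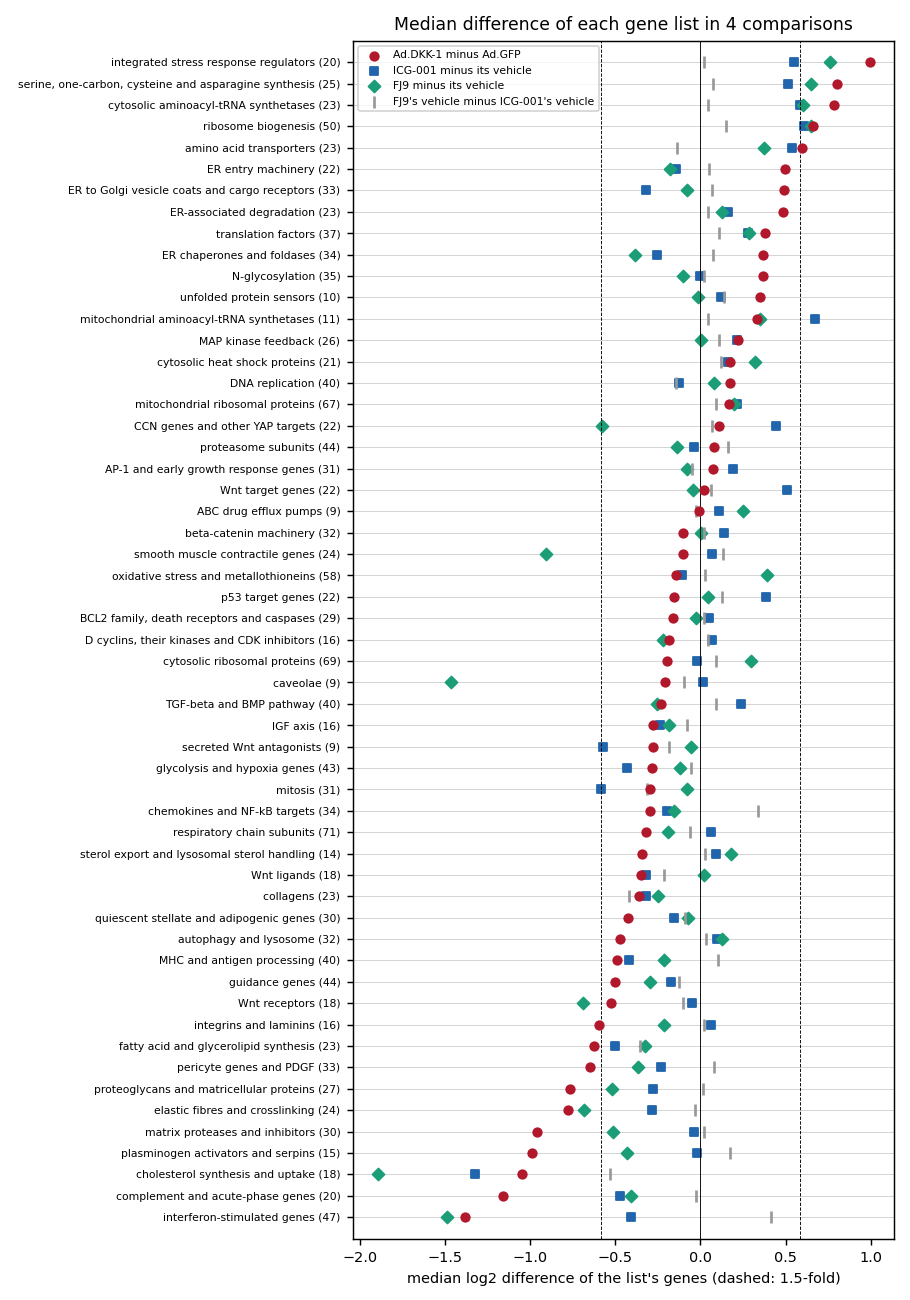
Median log2 difference of the genes past the level filter (their number in brackets) in each of 55 pathway lists, for Ad.DKK-1 minus Ad.GFP (red circles), ICG-001 minus its vehicle (blue squares), FJ9 minus its vehicle (green diamonds) and the vehicle of FJ9 minus that of ICG-001 (grey bars), with dashed lines at 1.5-fold. The lists of the integrated stress response (0.99) and of interferon-stimulated genes (−1.38) stand at the ends for Ad.DKK-1, and the 5 lists of the endoplasmic reticulum and its vesicles lie above 0 for Ad.DKK-1 with the compounds at lower values.

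The Wnt pathway itself was described first. Dkk1 read 6.01 on the Ad.DKK-1 array and 5.85 on the Ad.GFP array, and the filter left it out. No label names the species of the DKK-1 that the virus carries, and so the rat probe set checks nothing about infection. Of 22 target genes past the filter, 4 were higher and 6 lower, and their median was 0.02 (−0.0041 among genes with a mean of at least 8 on the other 5 arrays). Axin2, a feedback inhibitor that β-catenin induces, read 7.12 on Ad.DKK-1 and 9.08 on Ad.GFP, which is a difference of −1.96. It read 8.82 with ICG-001 and 8.94 with its vehicle, and 6.23 with FJ9 and 8.77 with its vehicle. The Ad.DKK-1 and FJ9 arrays were thus the low ones for Axin2, and the 3 control arrays lay close together. Ccnd1, which encodes cyclin D1, was also lowest on the FJ9 and Ad.DKK-1 arrays. It read 11.11 on Ad.DKK-1 and 12.09 on Ad.GFP, 11.94 with ICG-001 and 12.12 with its vehicle, and 9.18 with FJ9 and 12.13 with its vehicle. Nkd1, another feedback inhibitor, read 8.68 on Ad.DKK-1 and 9.97 on Ad.GFP. Targets on the other side were Fosl1, an AP-1 subunit (7.98 against 5.95), Twist1, a mesenchymal transcription factor (7.52 against 5.85), and Myc (9.97 against 8.95). Myc on the Ad.DKK-1 array lay within the 3 control arrays, since the vehicles read 9.99 and 9.97. Lef1 was under the filter, with 5.70 on Ad.DKK-1 and 4.67 on Ad.GFP, and 4.73 to 5.75 on the other 4 arrays.

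Wnt receptors and co-receptors were lower in 9 of 18 genes and higher in 0, with a median of −0.52. On the Ad.DKK-1 array 15 of the 18 lay below all 3 control arrays, where 41.4% of all genes did. The co-receptor Lrp5 read 9.40 on Ad.DKK-1 and 10.76 on Ad.GFP, and its other levels were 9.59 with ICG-001, 10.42 with its vehicle, 9.36 with FJ9 and 10.09 with its vehicle. Lrp6 read 9.52 on Ad.DKK-1 and 10.50 on Ad.GFP. Both binding partners of DKK-1 were therefore low on the Ad.DKK-1 array, and the FJ9 array read close to it for both (9.36 and 9.51). Ptk7, a receptor-like partner in planar cell polarity, read 5.28 on Ad.DKK-1 and 8.0035 on Ad.GFP. It also read 5.69 with ICG-001 against 7.20 with its vehicle, and 5.48 with FJ9 against 6.95 with its vehicle. The mean of Ptk7 over the 5 arrays other than Ad.GFP lay under the level filter. Lrp4 (6.02 against 7.31), Fzd6 (8.83 against 9.80) and Ror2 (5.98 against 6.87) were lower as well.

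Of 18 ligand and ligand-processing genes 1 was higher and 7 were lower (median −0.35). Wnt4 read 9.62 on Ad.DKK-1 and 10.99 on Ad.GFP, Wnt5a 9.29 against 10.21, and Wnt3a 6.34 against 7.77. Porcn, the enzyme that acylates Wnt proteins, read 7.70 on Ad.DKK-1 and 8.74 on Ad.GFP, with 7.48 to 8.17 on the other 4 arrays, so the Ad.GFP array was the high one. Secreted antagonists were higher in 1 and lower in 3 of 9 genes. The lower ones were Frzb (6.68 against 8.77), Sfrp1 (7.21 against 9.02) and Dkk3 (10.19 against 11.69), and the higher one was Igfbp4 (7.23 against 6.57). Cytoplasmic and nuclear components were higher in 4 and lower in 5 of 32 genes, a median of −0.10. Their largest difference was Tle1, a Groucho corepressor that binds TCF factors, at 9.30 on Ad.DKK-1 and 7.49 on Ad.GFP, with 7.91 to 8.14 on the other 4 arrays. Ctnnb1, the gene of β-catenin, read 10.67 on Ad.DKK-1 and 11.06 on Ad.GFP.

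Genes that fold proteins in the endoplasmic reticulum were higher with Ad.DKK-1. The unfolded protein response raises such genes through the sensors ATF6, IRE1 and PERK when unfolded protein builds up there. Of 34 chaperones and foldases 13 were higher and 6 lower, with a median of 0.37, and 23 of the 34 lay above all 3 control arrays, where 34.6% of all genes did. The same list had a median of −0.25 with ICG-001, with 0 genes higher and 6 lower, where 12.6% of all genes were higher and 13.1% lower. With FJ9 the median was −0.39, with 0 higher and 6 lower, where 11.6% of all genes were higher and 14.8% lower. Hspa5, which encodes the main chaperone BiP, read 13.67 on Ad.DKK-1 and 12.36 on Ad.GFP, and the other 4 arrays read 12.60 to 12.76. Creld2, a disulfide isomerase of the reticulum, read 12.27 on Ad.DKK-1 and 9.30 on Ad.GFP, 9.01 with ICG-001 and 9.56 with its vehicle, and 8.70 with FJ9 and 9.75 with its vehicle. For both genes the Ad.DKK-1 array alone was high, and Creld2 was lower than the vehicle with FJ9.

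The BiP cochaperones were also highest on the Ad.DKK-1 array. Dnajb9 read 12.29 on Ad.DKK-1 and 10.09 on Ad.GFP, with 9.87 to 10.54 on the other 4 arrays. Dnajc3 read 11.89 against 10.15, with 9.84 to 10.35 on the others, and Sdf2l1 read 9.76 against 7.89, with 6.94 to 7.76 on the others. Hyou1, a nucleotide exchange factor for BiP, read 12.49 on Ad.DKK-1 and 10.83 on Ad.GFP. Fkbp11, a prolyl isomerase, read 10.32 against 8.80. Ficd, which modifies BiP by AMPylation, read 10.66 on Ad.DKK-1 and 8.14 on Ad.GFP, with 8.34 to 9.25 on the others. Chosen after their values were seen, the 6 lower members were Sdf2, Qsox1, Ero1a, Fkbp9, Fkbp7 and Sil1, of −0.97 to −0.60. Median centring left the list median at 0.46.

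Sensors and transcription factors of this response had a similar median and a smaller share of genes past 1.5-fold. Of 10 genes 2 were higher and 1 lower, with a median of 0.35, against 0.37 for the chaperones and foldases. Atf6 read 11.89 on Ad.DKK-1 and 10.35 on Ad.GFP, and it was also higher with ICG-001 (11.82 against 10.66 with vehicle) and with FJ9 (12.05 against 10.80 with vehicle). Creb3l4, a relative of ATF6, read 7.45 on Ad.DKK-1 and 6.54 on Ad.GFP. Xbp1, the factor that IRE1 activates by splicing, read 11.66 on Ad.DKK-1 and 11.14 on Ad.GFP, within 1.5-fold. The value here is 1 level per gene and does not tell spliced from unspliced Xbp1. Mbtps1, the protease that releases ATF6 and also the SREBP factors, read 10.47 on Ad.DKK-1 and 11.23 on Ad.GFP.

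Removal of misfolded proteins from the reticulum is the role of Derl3, the largest increase of all 10025 genes. Derl3 read 11.61 on Ad.DKK-1 and 6.70 on Ad.GFP, so the difference was 4.91. It read 6.64 with ICG-001 and 6.86 with its vehicle, and 6.28 with FJ9 and 6.56 with its vehicle. The 5 arrays other than Ad.DKK-1 thus lay close together near the level filter. Of 23 genes of the list 9 were higher and 0 lower, with a median of 0.48, against 0.16 with ICG-001 and 0.13 with FJ9. Herpud1 (12.25 against 10.76), the ubiquitin ligase Syvn1 (10.42 against 9.15) and its partner Sel1l (11.71 against 10.76) were among them. The Syvn1 levels on the other 4 arrays were 8.94 to 9.25.

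Genes of the route into and out of the reticulum had medians above 0 as well. Of 22 genes of signal recognition, translocon and signal peptidase 10 were higher and 1 lower, with a median of 0.50, against −0.14 with ICG-001 and −0.18 with FJ9. They included the signal recognition particle subunits Srp54a (11.54 against 10.47), Srp68 (10.97 against 9.93) and Srp72 (11.07 against 10.23), and the signal peptidase subunit Sec11c (10.52 against 9.46). Ssr1 of the translocon read 11.42 on Ad.DKK-1 and 10.58 on Ad.GFP, and 9.65 with ICG-001 and 10.57 with its vehicle, so the compound and the virus lay on opposite sides of their controls. The single lower member was Srp14 (−0.74), named after its value was seen. Of 33 genes of COPII and COPI coats and cargo receptors 11 were higher and 0 lower, with a median of 0.49, against −0.32 with ICG-001 and −0.08 with FJ9. Of these 33, 29 lay above all 3 control arrays. The tether Uso1 (11.69 against 10.64), the COPII subunits Sec24a (11.09 against 10.22) and Sec24d (11.66 against 10.89) and the COPII GTPase Sar1a (11.47 against 10.69) were examples. Sec24d read 10.13 with ICG-001 and 10.94 with its vehicle.

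N-glycosylation, which attaches and trims sugar trees on secretory proteins, had 10 of 35 genes higher and 2 lower. Its median was 0.36, against 0.00 with ICG-001 and −0.10 with FJ9. Gmppb, which makes the mannose donor GDP-mannose, read 10.55 on Ad.DKK-1 and 8.54 on Ad.GFP, 7.49 with ICG-001 and 8.64 with its vehicle, and 7.47 with FJ9 and 8.70 with its vehicle. Its 3 controls lay close together, the Ad.DKK-1 array above them and both compound arrays below. Amigo3, a leucine-rich repeat membrane protein whose levels had the same order, read 10.36 on Ad.DKK-1 and 7.98 on Ad.GFP, 7.22 with ICG-001 and 8.15 with its vehicle, and 6.91 with FJ9 and 8.20 with its vehicle. Gnpnat1 and Pgm3 of the hexosamine pathway were higher too (11.48 against 10.10, and 10.59 against 9.72). The lower members, named after their values were seen, were Mpdu1 (−0.78) and Tusc3 (−0.75).

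**Figure D3:**
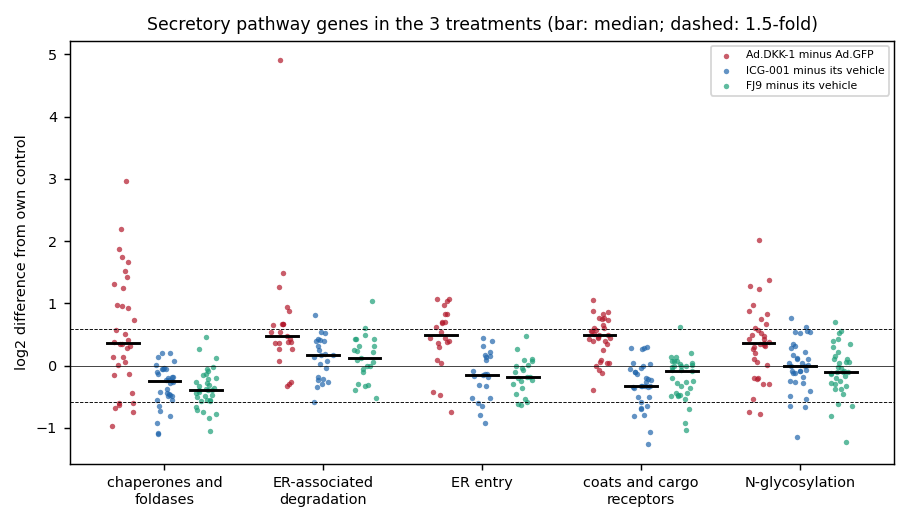
Log2 difference from its own control of each gene past the level filter in 5 secretory pathway lists, for Ad.DKK-1 (red, left in each group), ICG-001 (blue) and FJ9 (green), with black bars at the medians and dashed lines at 1.5-fold. The red medians lie between 0.36 and 0.50 and the blue and green ones between −0.39 and 0.16, and Derl3 stands at 4.91.

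In the integrated stress response phosphorylated eIF2α lowers general translation and favours that of ATF4. Its regulator genes had medians above 0 with Ad.DKK-1 and with both compounds. Of 20 regulators 13 were higher and 2 lower, with a median of 0.99, against 0.55 with ICG-001 and 0.76 with FJ9. Ddit3, which encodes the factor CHOP, read 11.33 on Ad.DKK-1 and 8.61 on Ad.GFP, 9.61 with ICG-001 and 8.43 with its vehicle, and 10.18 with FJ9 and 8.81 with its vehicle. Trib3, a pseudokinase that CHOP and ATF4 induce, read 10.78 on Ad.DKK-1 and 8.02 on Ad.GFP, 10.03 with ICG-001 and 8.37 with its vehicle, and 10.60 with FJ9 and 7.76 with its vehicle. Each of the 3 treated arrays stood above each control for these genes, and for Ddit3 the Ad.DKK-1 array was the highest. Stc2, a secreted stanniocalcin, read 9.51 on Ad.DKK-1 and 6.35 on Ad.GFP. Its vehicle arrays read 8.25 and 8.28, so its difference of 3.15 held a low Ad.GFP level. Atf4 read 12.23 against 11.17, Ppp1r15a, which restores eIF2α, 11.47 against 9.67, and Chac1 of glutathione breakdown 7.93 against 6.51. Ddit4, an inhibitor of mTORC1, was lower, at 8.36 on Ad.DKK-1 and 9.46 on Ad.GFP, as was the eIF2α kinase Eif2ak4 (−0.64, named after its value was seen).

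Genes that supply amino acids followed. Of 25 enzymes of serine, one-carbon, cysteine and asparagine synthesis 16 were higher and 2 lower (median 0.81, against 0.52 with ICG-001 and 0.65 with FJ9). Cth, which makes cysteine from cystathionine, read 8.51 on Ad.DKK-1 and 5.70 on Ad.GFP, 9.10 with ICG-001 and 6.33 with its vehicle, and 9.29 with FJ9 and 6.66 with its vehicle. The 3 differences of Cth, 2.81 with Ad.DKK-1, 2.77 with ICG-001 and 2.64 with FJ9, were close to each other. Phgdh, the first enzyme of serine synthesis, read 9.64 on Ad.DKK-1 and 8.27 on Ad.GFP. Aldh1l2, a mitochondrial folate enzyme, was high on Ad.DKK-1 alone, with 10.46 against 8.93 on Ad.GFP and 9.06 to 9.38 on the other 4 arrays. The lower members, named after their values were seen, were Cbs (−0.82) and Tyms (−0.75).

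Of 23 amino acid transporters 12 were higher and 4 lower. The glutamine carrier Slc1a5 (11.03 against 9.01), the cystine exchanger Slc7a11 (9.68 against 7.27), the arginine carrier Slc7a1 (10.40 against 8.93) and Slc7a5 of leucine uptake (11.48 against 10.31) were higher. Slc7a2, another arginine carrier, was lower (8.002 against 9.20, with 8.06 to 8.25 on the other 4 arrays). The vehicle arrays of Slc7a11 read 8.68 and 8.11, so its difference held a low Ad.GFP level. Of 23 cytosolic aminoacyl-tRNA synthetases and their scaffold genes 17 were higher and 0 lower (median 0.78, against 0.58 with ICG-001 and 0.60 with FJ9), and 21 lay above all 3 control arrays. Examples were Eprs1 (11.61 against 10.30), Yars1 (11.54 against 10.27), Farsb (10.89 against 9.70) and Vars1 (10.55 against 9.45). The mitochondrial synthetases had 3 of 11 higher and 1 lower.

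Ribosome assembly genes were higher, and most ribosomal protein genes were within 1.5-fold. Of 50 assembly genes 31 were higher and 0 lower, with a median of 0.66, close in value to 0.61 with ICG-001 and 0.65 with FJ9. Nop58 of small nucleolar particles read 11.38 on Ad.DKK-1 and 10.02 on Ad.GFP, Polr1b of RNA polymerase I 9.02 against 7.62, and Gnl2, a nucleolar GTPase, 10.99 against 9.50. Of 37 translation factors 10 were higher and 0 lower, led by Eif2b3 of the eIF2B exchange factor (10.16 against 8.53), which was also higher with ICG-001 (1.77) and FJ9 (1.83). Among 69 cytosolic ribosomal proteins 0 were higher and 4 lower, and the median was −0.20, against −0.02 with ICG-001 and 0.29 with FJ9. The 4 were Rpl39 (9.23 against 9.93), Rps19 (9.54 against 10.20), Rpl34 (11.66 against 12.28) and Rpl27a (10.79 against 11.38), and 45 of the 69 lay below all 3 control arrays. Ribosomal protein genes have many processed copies in the genome, so their probe sets can share signal. With median centring the ribosomal protein median was −0.10.

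Mitochondrial genes were mixed. Respiratory chain subunits had 1 of 71 higher and 12 lower, where 14.5% of all genes were higher and 20.8% lower. The share of lower genes was thus no greater than over all genes. Their median was −0.32, against 0.06 with ICG-001 and −0.19 with FJ9. Lower members of complexes III, I and V were Uqcrh (9.77 against 10.64), Ndufa1 (8.17 against 9.30) and Atp5po (7.86 against 8.98). Uqcrh was also lower with ICG-001 (−0.89) and FJ9 (−0.89). Cycs, which encodes cytochrome c, was the single higher member (0.75, named after its value was seen). Mitochondrial ribosomal proteins had 9 of 67 higher and 4 lower. The mitochondrial chaperone Hspa9 read 12.08 on Ad.DKK-1 and 10.80 on Ad.GFP. Heat shock proteins outside the reticulum, among them Hspa9, had 4 of 21 higher and 0 lower.

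Among the 25 largest increases, 14 lay at least 1 log2 unit above every other array, 9 were higher with both compounds as well, and 8 were within 1.5-fold with both. Of all 10025 genes 70 stood that far above every other array, and 57.9% were within 1.5-fold with both compounds. Of the 1449 higher genes 16.7% were higher with both compounds. The 25 were picked by their difference from Ad.GFP, so their height over that array was fixed by the choice. Myo16, an unconventional myosin, read 10.02 on Ad.DKK-1 and 6.58 on Ad.GFP, with 6.19 to 6.56 on the other 4 arrays. Ggct, γ-glutamylcyclotransferase of glutathione turnover, read 10.88 against 7.79, with 7.70 to 8.41 on the others, and its 2 probe sets gave differences of 3.09 each. Cptp, which carries ceramide-1-phosphate, read 10.999 against 8.45, with 7.76 to 8.52 on the others, and Pkmyt1, a kinase that holds back CDK1, read 9.03 against 6.61, with 6.53 to 7.04 on the others. These 4 genes were high on the Ad.DKK-1 array alone. Ung of DNA repair was highest there too (9.41 against 7.12), but it was also higher with FJ9 (7.62 against 6.52 with vehicle). Tfec, a relative of the lysosomal factor TFEB, read 8.83 on Ad.DKK-1 and 6.29 on Ad.GFP, and Nr4a2, an orphan nuclear receptor, 10.07 against 7.64. Nr4a2 was also higher with FJ9 (8.81 against 7.40 with vehicle). Slc26a10 of an anion transporter family read 7.87 against 5.70, with 6.02 to 6.41 on the others. Its 6-array mean of 6.40 passed the level filter only through the Ad.DKK-1 level.

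Other large increases were shared with a compound or rested on a low Ad.GFP level. Abcb1a, the multidrug efflux pump, read 8.85 on Ad.DKK-1 and 4.75 on Ad.GFP, 8.17 with ICG-001 and 6.03 with its vehicle, and 9.37 with FJ9 and 5.95 with its vehicle. The treated arrays were all high, and the Ad.GFP array was more than 1 log2 unit under the vehicles. St8sia2, a polysialyltransferase, read 8.49 against 6.21, and 10.40 with ICG-001 against 6.98 with its vehicle. Nppc, which encodes C-type natriuretic peptide, read 8.51 against 5.83, and 7.81 with ICG-001 against 5.10 with its vehicle. The mean of Nppc over the 5 arrays other than Ad.DKK-1 lay under the level filter. Prss12, a secreted serine protease, read 7.98 on Ad.DKK-1 and 5.59 on Ad.GFP, and 8.16 with ICG-001 against 6.11 with its vehicle. Rgs16, a regulator of G protein signalling, read 7.34 on Ad.DKK-1 and 5.01 on Ad.GFP, while FJ9 and its vehicle read 7.33 and 7.32. Its difference of 2.33 therefore came with a low Ad.GFP level and no height over the FJ9 arrays. Hbegf, a ligand of the EGF receptor, read 8.45 against 6.23, and Cd24, a surface glycoprotein, 8.15 against 5.61. Cxadr, the receptor adenovirus uses to enter cells, read 9.15 on Ad.DKK-1 and 8.30 on Ad.GFP.

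**Figure D4:**
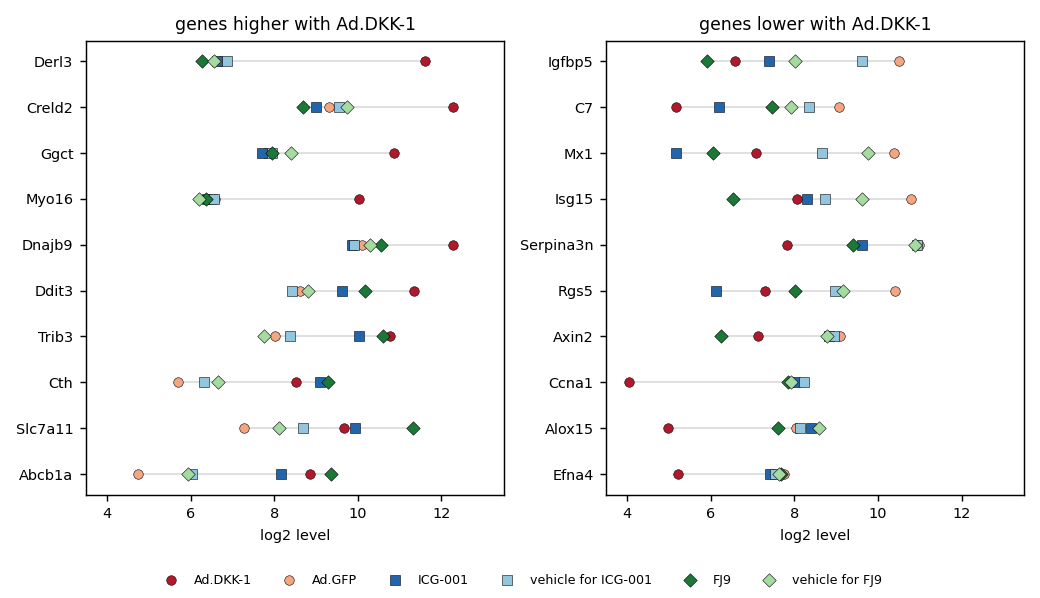
Log2 level on each of the 6 arrays of 10 genes higher and 10 genes lower with Ad.DKK-1 (dark red circles) than with Ad.GFP (light circles), beside ICG-001 (dark squares), FJ9 (dark diamonds) and their vehicles (light squares and diamonds). Derl3 (11.61), Creld2 (12.27), Ggct (10.88) and Myo16 (10.02) stand alone on the Ad.DKK-1 array, while Cth, Trib3 and Abcb1a are high on every treated array, and Ccna1 (4.03), Alox15 (4.98) and Efna4 (5.20) are low on the Ad.DKK-1 array alone.

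Interferon-stimulated genes were the lowest list. They encode antiviral effectors that cells make in response to interferon. Of 47 genes 40 were lower and 1 higher, with a median of −1.38, against −0.41 with ICG-001 and −1.49 with FJ9. The mean level of the 47 genes was 8.66 on Ad.DKK-1 and 9.96 on Ad.GFP, 8.40 with ICG-001 and 8.99 with its vehicle, and 7.93 with FJ9 and 9.48 with its vehicle. The Ad.GFP array was the highest of the 6, and the vehicle arrays differed from each other by a median of 0.42 in this list. Mx1, a GTPase against influenza and other viruses, read 7.08 on Ad.DKK-1 and 10.38 on Ad.GFP, 5.16 with ICG-001 and 8.66 with its vehicle, and 6.06 with FJ9 and 9.76 with its vehicle. Isg15, a ubiquitin-like modifier, read 8.06 on Ad.DKK-1 and 10.78 on Ad.GFP, with 8.73 and 9.63 on the vehicle arrays. The Ad.GFP level of Isg15 stood above both vehicles and the Ad.DKK-1 level below both, a difference of −2.71. Mx2 read 8.09 against 10.99, with 8.32 on the vehicle for ICG-001. Mx1 and Mx2 are related in sequence and their probe sets may share signal. Ifit3 (6.50 against 9.47), Uba7, the activating enzyme for ISG15 (6.55 against 9.12), and Cmpk2 (6.96 against 9.21) were lower too. In the list 34 of 47 genes lay below all 3 control arrays and 10 within them. The higher one was Isg20 (1.29, named after its value was seen).

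Antigen presentation had the same direction, with 17 of 40 genes lower and 2 higher (median −0.49). The class I genes RT1-S3 (8.13 against 9.95) and RT1-CE13 (9.09 against 10.56), which belong to a family of near-identical copies and are uncertain as single genes, were lower, as was the peptide editor Tapbpl (8.94 against 10.14). Of 44 proteasome genes 5 were lower and 0 higher. They were Psmb9 (8.81 against 10.40), Psmb10 (7.58 against 9.02), Psme1 (10.11 against 11.16), Psme2 (10.44 against 11.26) and Psmb1 (9.44 against 10.08). The first pair are immunoproteasome subunits and the PA28 genes Psme1 and Psme2 are their activators, all of them induced by interferon, and the median of the 44 genes was 0.08.

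Complement and acute-phase genes were lower in 16 of 20 and higher in 1 (median −1.16, against −0.47 with ICG-001 and −0.41 with FJ9). C7, of the membrane attack complex, read 5.18 on Ad.DKK-1 and 9.07 on Ad.GFP, 6.19 with ICG-001 and 8.36 with its vehicle, and 7.47 with FJ9 and 7.92 with its vehicle. Serpina3n, an acute-phase protease inhibitor, read 7.82 on Ad.DKK-1 and 10.98 on Ad.GFP, with 10.92 and 10.88 on the vehicle arrays. Its 3 controls lay close together, and the compound arrays stood between, at 9.62 and 9.41. A2m (9.26 against 11.53), C6 (5.28 against 7.46), C1s (9.41 against 11.01) and the ferroxidase Cp (9.38 against 10.85) were lower as well. The higher one was Cfp (1.00, named after its value was seen). Chemokine and NF-kB genes had 11 of 34 lower and 2 higher, with a median of −0.30. Between the vehicle arrays 12 of the 34 were higher and 4 lower, with a median of 0.34. The Ad.DKK-1 median of this list was thus no larger in size than that between the vehicle pools. Vcam1, an adhesion molecule for leukocytes, read 7.90 on Ad.DKK-1 and 10.80 on Ad.GFP, 6.83 with ICG-001 and 8.90 with its vehicle, and 7.38 with FJ9 and 9.56 with its vehicle. Cxcl10 (6.71 against 8.84), Il33 (7.15 against 9.18) and Tlr3, a sensor of double-stranded RNA (6.96 against 8.72), were lower too.

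Markers of macrophages moved with these immune genes. All 5 of 18 measured macrophage markers that passed the level filter were lower, and 16 of all 18 were below 0. The mean level of the 18 was 5.83 on Ad.DKK-1 and 6.86 on Ad.GFP, 6.01 with ICG-001 and 6.66 with its vehicle, and 6.18 with FJ9 and 6.76 with its vehicle. Fcer1g, a signalling subunit of Fc receptors, read 6.35 on Ad.DKK-1 and 8.12 on Ad.GFP, Lyz2 6.53 against 8.19, Cd68 7.26 against 8.37, Csf1r 6.05 against 6.96 and Cd14 10.68 against 11.63. Adgre1, the F4/80 antigen, stayed under the filter and was picked after its values were seen. It read 4.51 on Ad.DKK-1 and 7.03 on Ad.GFP, with 4.11 to 4.96 on the other 4 arrays, so it was high on the Ad.GFP array alone. Endothelial markers past the filter had 5 of 8 lower (6 of all 13 measured, median −0.15), for example Flt1 (7.95 against 9.66) and Erg (6.36 against 8.20). The vehicle for ICG-001 read 7.08 for Erg. Of all 13 endothelial markers 5 were above 0, among them Esam (8.24 against 7.79, within the 3 controls). Of 3 hepatocyte markers past the filter 1 was higher (Tat, 7.06 against 6.35), and of all 16 measured 4 were lower, with a median of 0.05. Tat, with a 6-array mean of 6.42, passed the filter only through its Ad.DKK-1 level. In RNA from a whole culture, fewer cells of a type and less RNA per cell cannot be told apart. The part of macrophage RNA in the immune gene differences was not tested.

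Most transcripts of matrix proteases and of their inhibitors were lower, and net remodelling was not measured. Of 30 metalloproteinases, ADAMTS proteases and inhibitors 23 were lower and 1 higher, with a median of −0.96, against −0.04 with ICG-001 and −0.51 with FJ9. Timp1, the main inhibitor of metalloproteinases, read 10.87 on Ad.DKK-1 and 12.51 on Ad.GFP, 11.77 with ICG-001 and 12.32 with its vehicle, and 11.69 with FJ9 and 12.20 with its vehicle. Adamts2, which trims procollagen, read 9.88 on Ad.DKK-1 and 11.65 on Ad.GFP, with 10.74 to 11.30 on the other 4 arrays. The Ad.DKK-1 array was the lowest of the 6 for both, and 26 of the 30 genes lay below all 3 control arrays. Adamts15 (7.37 against 8.91), Adamts4 (5.74 against 7.50) and Mmp17 (6.89 against 8.39) were lower too, and Mmp15 was the higher one (0.73, named after its value was seen). The mean of Adamts4 over the 5 arrays other than Ad.GFP lay under the level filter. Plasminogen activators and serpins had 10 of 15 lower and 0 higher. Plau, which encodes urokinase, read 5.16 on Ad.DKK-1 and 7.32 on Ad.GFP, Plat, tissue plasminogen activator, 10.59 against 11.87, and their inhibitor Serpine2 10.62 against 11.85.

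Structural matrix genes were lower as well, with the main fibrillar collagen near its control. Elastic fibre and crosslinking genes had 15 of 24 lower and 0 higher (median −0.78), proteoglycans and matricellular proteins 17 of 27 lower and 0 higher (−0.77), and collagens 10 of 23 lower and 0 higher (−0.36). Between the vehicle arrays the collagen median was −0.42, so the collagen median for Ad.DKK-1 was no larger in size than that between the vehicle pools. Col1a1 read 12.80 on Ad.DKK-1 and 12.98 on Ad.GFP, and Col3a1 11.60 against 12.58. Eln, which encodes elastin, read 10.31 against 12.12, and Loxl1, a crosslinking enzyme, 10.85 against 12.31. Loxl1 read 12.36 with ICG-001 and 12.32 with its vehicle, and 10.82 with FJ9 and 12.34 with its vehicle, so it was low on the Ad.DKK-1 and FJ9 arrays. Sparcl1, a matricellular protein, read 7.99 on Ad.DKK-1 and 10.46 on Ad.GFP, with 9.51 to 10.16 on the other 4 arrays. Postn (7.12 against 8.995), Smoc2 (9.88 against 11.70) and Spon2 (10.01 against 11.88) were lower. Portal fibroblast markers, some of them matrix genes, had 3 of 6 lower and 0 higher past the filter (median −0.97), and 6 of all 10 measured were lower (−0.93). Their mean level over the 10 was 6.75 on Ad.DKK-1 and 7.50 on Ad.GFP, with 6.94 to 7.91 on the other 4 arrays. Mesothelial markers had 2 of 4 lower and 1 higher, with Wt1 at 7.52 against 9.29, Gpm6a at 8.68 against 10.13 and Ezr at 7.71 against 5.94. For Ezr the vehicle arrays read 7.09 and 6.79, so its difference held a low Ad.GFP level. The part of portal fibroblasts and mesothelial cells in the matrix gene differences was not tested. Integrins and laminins had 8 of 16 lower and 1 higher, with Itgb5 at 10.29 against 11.74 and Itga6, the higher one, at 8.64 against 7.30.

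Cholesterol genes, which SREBP factors induce when sterol is short, had medians below 0 with every treatment. Of 18 genes of cholesterol synthesis and uptake 15 were lower and 0 higher with Ad.DKK-1 (median −1.05), and all 18 lay below all 3 control arrays. The medians were −1.32 with ICG-001 and −1.90 with FJ9, and −0.53 between the vehicle arrays. Tm7sf2, a sterol reductase, read 8.90 on Ad.DKK-1 and 10.89 on Ad.GFP, Acat2 9.63 against 11.13, Dhcr7, the last reductase of the pathway, 8.83 against 10.31, and Sqle, squalene epoxidase, 9.93 against 11.07. Fatty acid and glycerolipid synthesis had 12 of 23 lower and 3 higher with Ad.DKK-1 (median −0.63), with medians of −0.50 with ICG-001, −0.32 with FJ9 and −0.36 between the vehicle arrays. Scd, a stearoyl-CoA desaturase, read 7.28 on Ad.DKK-1 and 9.65 on Ad.GFP, and its vehicle arrays read 11.09 and 8.26. The controls of Scd spanned more than the Ad.DKK-1 difference of −2.38. Fads1 (8.37 against 10.29) and Fads2 (8.65 against 10.59) were lower. For Fads1 the vehicle arrays read 10.92 and 8.61, so its controls also spanned more than its Ad.DKK-1 difference of −1.92.

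Lysosomal genes had a median below 0 with Ad.DKK-1 and above 0 with the compounds. Autophagy and lysosome genes had 13 of 32 lower and 4 higher, with a median of −0.47, against 0.09 with ICG-001 and 0.13 with FJ9. Ctsh, a cathepsin, read 10.89 on Ad.DKK-1 and 12.45 on Ad.GFP, with 11.56 to 12.06 on the other 4 arrays. Hexa, which degrades gangliosides, read 9.15 against 10.66, with 10.12 to 10.60 on the others. The autophagy kinase Ulk1 was lower (7.67 against 8.997) and its partner Atg13 higher (10.19 against 8.89, with 8.69 to 8.90 on the others). Sterol export and handling had 6 of 14 lower and 2 higher (median −0.34, against 0.09 with ICG-001 and 0.18 with FJ9). Apoe, the lipoprotein of sterol export, read 8.21 on Ad.DKK-1 and 10.05 on Ad.GFP, with 9.17 to 9.50 on the other 4 arrays. Npc2, which moves cholesterol out of the lysosome, read 11.04 against 12.21, with 11.72 to 12.35 on the others. The higher ones were Abca1, a sterol exporter (9.17 against 8.02), and Star, which brings cholesterol into mitochondria (7.99 against 5.83). Both were also higher with ICG-001 than with its vehicle (Abca1 by 1.73, Star by 0.62), and Star read 11.75 with FJ9 and 6.60 with its vehicle.

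The stellate cell identity of the arrays was checked on its markers. Of 19 measured stellate cell markers 17 passed the filter, and their mean level was 10.60 on Ad.DKK-1 and 11.51 on Ad.GFP, with 10.38 to 11.36 on the other 4 arrays. Of the 17, 11 were lower with Ad.DKK-1 and 0 higher, with a median of −0.98. Acta2 had no probe set of its own symbol and was not analysed here. Rgs5, a pericyte gene, read 7.29 on Ad.DKK-1 and 10.41 on Ad.GFP, 6.13 with ICG-001 and 8.96 with its vehicle, and 8.01 with FJ9 and 9.17 with its vehicle. Lrat, which makes the retinyl esters stellate cells store, read 10.65 against 11.96 (with 10.52 on the vehicle for FJ9, so within the controls), Cygb, cytoglobin, 10.63 against 11.95, and Hgf, a growth factor for hepatocytes, 8.22 against 9.88. Pdgfra read 9.45 on Ad.DKK-1 and 10.74 on Ad.GFP, and the pericyte and PDGF list had 17 of 33 lower and 4 higher. Among them Rgs4 (9.43 against 12.23), Abcc9 (8.31 against 10.08), the ectonucleotidase Nt5e (9.81 against 11.83) and Notch3 (5.37 against 6.99) were lower. The mean of Notch3 over the 5 arrays other than Ad.GFP lay under the level filter. The list of quiescent stellate and adipogenic genes had 14 of 30 lower and 2 higher, with Rbp4 at 7.06 against 8.97, Lpl at 9.35 against 10.79 and G0s2, an inhibitor of lipolysis, at 6.75 against 9.71. Pparg stayed under the filter (5.24 against 4.93), and Ndn, a growth suppressor, read 9.63 against 10.59. The medians of the stellate marker (−0.98), pericyte (−0.65) and quiescence (−0.42) lists were thus all below 0.

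Contractile genes were nearer to their control, with 4 of 24 lower and 0 higher (median −0.10, against 0.07 with ICG-001 and −0.91 with FJ9). Myl9 read 10.96 on Ad.DKK-1 and 11.45 on Ad.GFP, and 9.93 with FJ9 and 11.67 with its vehicle. Tnnt2, a cardiac troponin, read 9.31 against 10.77 and the light chain kinase Mylk 10.57 against 11.41. Caveolar genes had 1 of 9 higher and 2 lower with Ad.DKK-1, while FJ9 had a median of −1.46. Among CCN genes and other YAP targets 4 of 22 were higher and 3 lower, with the endothelin gene Edn1 at 10.33 against 8.71 (its vehicle arrays read 10.22 and 10.32, level with Ad.DKK-1) and Yap1 at 9.56 against 10.29. TGF-β and BMP genes had 6 of 40 higher and 12 lower. Tgfb1, the main fibrogenic ligand, read 9.88 on Ad.DKK-1 and 10.87 on Ad.GFP, with 10.52 to 11.21 on the other 4 arrays. Its co-receptor Tgfbr3 (8.29 against 9.69), the activin antagonist Fst (7.80 against 9.50) and the BMP antagonist Nbl1 (6.88 against 8.995) were lower, and Bmp3 was higher (8.67 against 6.92). Gdf2, which encodes BMP9, read 8.31 on Ad.DKK-1 and 10.89 on Ad.GFP.

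In the IGF axis Igfbp5, a binding protein that also sits in matrix, had a difference of −3.91, and Ccna1, whose Ad.DKK-1 level is near the floor of the values, one of −3.90. Igfbp5 read 6.58 on Ad.DKK-1 and 10.49 on Ad.GFP, 7.40 with ICG-001 and 9.62 with its vehicle, and 5.92 with FJ9 and 8.003 with its vehicle. All 3 treated arrays were below all 3 controls, and the controls spanned 8.003 to 10.49. Igfbp3 read 9.71 on Ad.DKK-1 and 11.88 on Ad.GFP, with 10.54 and 10.45 on the vehicle arrays, so Ad.GFP was the high control. Igf1 read 11.95 against 12.71. Pappa, the protease that frees IGF from its binding proteins, was higher (8.11 against 6.08).

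The 25 largest decreases held genes far lowest on the Ad.DKK-1 array and genes low with the compounds too, and these kinds overlapped. In 9 of the 25 the Ad.DKK-1 level lay at least 1 log2 unit below every other array, 14 were lower with both compounds, and 4 were within 1.5-fold with both. Serpina3n was among both the 9 and the 14. Of all 10025 genes 114 stood that far below every other array, and 57.9% were within 1.5-fold with both compounds. Of the 2082 lower genes 15.1% were lower with both compounds. These 25, too, were picked by their difference from Ad.GFP, so their depth under that array was fixed by the choice. Ccna1, a cyclin of the germ line, read 4.03 on Ad.DKK-1 and 7.93 on Ad.GFP, with 7.84 to 8.23 on the other 4 arrays. The floor of the deposited values is 4, so its level stood near the floor on that array alone. Alox15, a lipoxygenase, read 4.98 against 8.04, with 7.61 to 8.58 on the others. Slc44a3 of a choline transporter family read 5.35 against 8.51, with 8.77 to 9.52 on the others. Alox15 was also lower with FJ9 (−0.97), and Slc44a3 with ICG-001 (−0.71). Fbln1, a fibulin of the matrix, read 4.96 against 7.62 and the relaxin-family receptor Rxfp2 5.38 against 8.05. The neurokinin receptor Tacr3 read 4.70 against 7.44 and the transcription factor Ikzf2 4.58 against 7.16. Tacr3 was also lower with ICG-001 (−0.75). The mean of Ikzf2 over the 5 arrays other than Ad.GFP lay under the level filter. Efna4, an ephrin outside the 25, read 5.20 against 7.74, with 7.42 to 7.67 on the others. E2f8, a repressor in the cell cycle, was low with the compounds too (5.87 against 8.94, and 4.99 with ICG-001 against 8.10 with its vehicle). So were Sectm1a and Sectm1b (5.96 against 8.85, and 6.78 against 9.60), which are related copies whose probe sets may share signal. Pde7b, a phosphodiesterase, read 7.15 on Ad.DKK-1 and 10.09 on Ad.GFP, was lower with ICG-001 (6.67 against 9.34) and within 1.5-fold with FJ9 (8.91 against 8.56).

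The count of genes that stand alone was taken for every array. On the Ad.DKK-1 array 114 genes lay at least 1 log2 unit below all 5 other arrays, and 89 of these had a mean level under 8. On the FJ9 array 140 did, and 30 of these had a mean level under 8. The Ad.GFP array held 8 such genes, ICG-001 14, and the vehicle arrays 2 and 4. Above all 5 other arrays by the same step stood 70 genes on Ad.DKK-1, 37 of them with a mean of 8 or more, 31 on ICG-001, 32 on FJ9, 17 on Ad.GFP, and 3 and 1 on the vehicle arrays. The Ad.DKK-1 array had 382 of 26988 probe sets within 0.01 of the floor, against 222 on Ad.GFP and 49 to 134 on the other 4 arrays. What these values at the floor have to do with the decreases of weak genes was not tested.

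**Figure D5:**
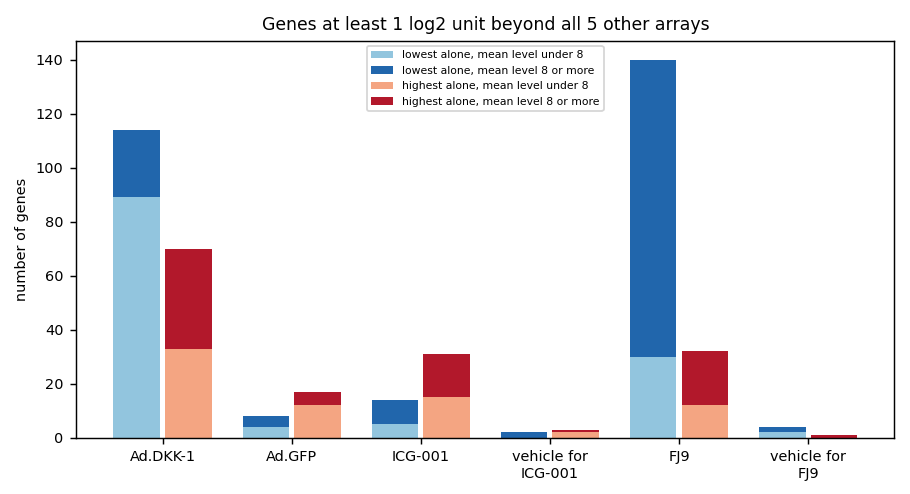
Number of genes (vertical axis) whose level on 1 array (horizontal axis) lay at least 1 log2 unit below (blue) or above (red) all 5 other arrays, split by a mean level over the 6 arrays under 8 (pale) or of 8 and more (dark). Of 114 genes low on Ad.DKK-1 alone 89 had a mean under 8, against 30 of 140 on FJ9.

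Growth genes were split. DNA replication genes had 7 of 40 higher and 7 lower, with a median of 0.18 that turned to −0.01 among genes with a mean of at least 8 on the other 5 arrays. Fen1, a flap endonuclease (8.76 against 7.73), Mcm7 of the replicative helicase (10.10 against 9.12) and Ccne2, cyclin E2 (8.03 against 7.15), were higher, and Rrm2, of deoxynucleotide synthesis, was lower (7.00 against 8.77). Ccne2, with a 6-array mean of 6.47, passed the filter only through its Ad.DKK-1 level. Mitosis genes had 7 of 31 higher and 11 lower, and 31 of 59 measured genes passed the filter. Their median of −0.29 became 0.09 among genes with a mean of at least 8. Between the vehicle arrays the mitosis median was −0.31, so the Ad.DKK-1 median was no larger in size than that between the vehicle pools. Top2a (5.53 against 6.94) and Aurkb (5.84 against 7.25) were lower and Cks1b, a subunit of cyclin-dependent kinases, was higher (9.57 against 8.32). Cdkn2a, which encodes the cell cycle inhibitors p16 and ARF, read 6.29 on Ad.DKK-1 and 7.52 on Ad.GFP. Among apoptosis genes 3 of 29 were higher and 9 lower. Casp4, an inflammatory caspase, read 10.53 against 9.38, and was higher with both compounds (1.61 with ICG-001 and 1.55 with FJ9). The BCL2 relative Bok (7.59 against 9.47), Bcl2l11, which encodes the death inducer BIM (5.86 against 7.38), and the TNF receptor Tnfrsf1b (9.14 against 11.07) were lower. Of 22 p53 targets 6 were higher and 6 lower.

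Early response, oxidative stress, metabolic and guidance genes completed the lists. Immediate early factors had 6 of 31 higher and 6 lower (a median of 0.08, and of −0.0007 with no level filter), with Mafk higher (10.88 against 9.28) and Egr1 and Egr2 lower (6.97 against 8.28, and 7.18 against 8.27). MAP kinase feedback genes had 5 of 26 higher and 2 lower, with the phosphatase Dusp5 at 7.11 against 5.66 (its vehicle arrays read 6.72 and 6.59). Oxidative stress genes had 12 of 58 higher and 11 lower (median −0.15, against 0.39 with FJ9), with Gsta4 (7.58 against 9.59) and Mgst1 (5.50 against 7.59) of glutathione transfer lower. Drug efflux pumps other than Abcb1a differed less, with Abcc4 at 8.94 against 8.03. The median of that list was −0.01 and turned to 0.08 with median centring. Glycolysis and hypoxia genes had 2 of 43 higher and 13 lower, with Aldoc at 7.02 against 8.97 and the lactate carrier Slc16a1 at 10.67 against 9.26. Semaphorins, ephrins, Slits and their receptors had 19 of 44 lower and 4 higher. Unc5a, a netrin receptor (5.84 against 7.81), and Plxna2, a plexin (8.31 against 9.84), were lower, and Efnb2 was higher (8.92 against 7.02), as it was with ICG-001 (9.55 against 7.19 with vehicle).

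The 3 treatments shared no array, so their lists were set side by side over the same 10025 genes. Of the 1449 genes higher with Ad.DKK-1, 422 were higher with ICG-001 too (29.1% of the Ad.DKK-1 list and 33.3% of the ICG-001 list), and 436 with FJ9 (30.1% and 37.6%). Of all 10025 genes 12.6% were higher with ICG-001 and 11.6% with FJ9. Of the 2082 lower genes, 607 were lower with ICG-001 (29.2% and 46.2%) and 722 with FJ9 (34.7% and 48.7%), where 13.1% and 14.8% of all genes were. Of the higher genes 58 were lower with ICG-001 (4.0%, against 13.1% of all genes) and 66 with FJ9 (4.6%, against 14.8%). Of the lower genes 68 were higher with ICG-001 (3.3%, against 12.6% of all genes) and 68 with FJ9 (3.3%, against 11.6%). Within 1.5-fold under both compounds lay 735 of the higher genes (50.7%) and 973 of the lower genes (46.7%), where 57.9% of all genes did. By list, the stress response, amino acid, synthetase and ribosome assembly genes were higher in all 3 treatments, and the cholesterol genes were lower in all 3. The folding, translocation, coat and glycosylation lists had medians above 0 with Ad.DKK-1 and at or below 0 with both compounds, and the lysosome list the reverse. The virus was applied for 24 h with serum and followed by 24 h without serum, and the compounds were given for 24 h without serum, so treatment, virus, time and serum cannot be told apart between them, and with 1 array a side no difference between treatments was tested.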

How the data were processed

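RNA from 6 pools of cells was hybridised to Affymetrix rat arrays. The deposited log2 values were computed by the authors in Affymetrix Expression Console, with RMA per the submitters' processing notes, and neither versions nor detection calls are given in the sources used here. Of 26988 probe sets 15092 had 1 symbol in the platform annotation, 323 had several and 11573 were unlisted. Gene names were checked by Entrez ID against RefSeq's GRCr8 table (15062 probe sets matched, 0 symbols changed). For the 497 of 14322 genes with several probe sets, the one of highest 6-array mean was kept. The lowest 30% of gene means were left out. Differences were taken on the values as deposited, with no test, and 1 array per group limits the precision.

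The text names the 25 largest differences each way, up to 6 per list and the genes of the question, 386 in all, and 148 uncharacterised loci past the filter stay unnamed. The members and lists were chosen with earlier results of these data known. Alternatives were median centring, repeated quantile normalization, loess (span 0.3), the mean of all probe sets, no level filter, a 2-fold limit and, added after seeing the data, a mean of at least 8 on the other 5 arrays. The steps were tested on simulated data in Python 3.11.15 with pandas 2.3.3, numpy 2.4.6, statsmodels 0.14.6 and matplotlib 3.10.9.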

Additional observations from a re-analysis of the deposited data

How the results depend on the processing

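With the values as deposited 1449 genes were higher and 2082 lower with Ad.DKK-1, so that 41.0% of the called genes were higher. The share was 52.7% with median centring (1874 higher, 1681 lower), 48.7% with loess (1666 and 1752) and 46.2% with repeated quantile normalization (1528 and 1782). A 2-fold limit left 400 higher and 793 lower genes. With no level filter 2078 genes were higher and 3236 lower of 14322. Among the 6387 genes with a mean of at least 8 on the other 5 arrays, chosen after seeing the data, 910 were higher and 1188 lower. Those counts follow from the limit and from the number of genes taken in. Of 386 named genes 17 moved by more than the spread between the vehicle arrays under loess, and 0 did under median centring, quantile normalization or the mean of all probe sets. The median of 3 of 63 lists moved by more than that spread with no level filter and of 4 of 60 at a mean of at least 8, and of 0 lists under the scalings. List medians that changed sign were those of efflux pumps (−0.01, to 0.08 with median centring, 0.06 with quantile normalization, 0.08 with loess and 0.11 at a mean of at least 8), cholangiocyte markers (−0.11, to 0.04 with quantile normalization and 0.16 with loess), lymphocyte markers (0.22, to −0.06 with no level filter), early response, Wnt target, DNA replication and mitosis genes, given above. No paired analysis was possible because each group holds 1 array.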

Other observations

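Of the probe sets with no gene listed in the platform annotation, 6326 passed the same level. With Ad.DKK-1 785 of them were higher and 1056 lower than with Ad.GFP, with a median of −0.05. Between the vehicle arrays 165 were higher and 641 lower, with a median of −0.06.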
